A study of Mus musculus with 21 samples.

Results

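The respiratory chain genes of the nucleus were examined in the RNA of skeletal muscle fibro-adipogenic progenitors (FAPs), the mesenchymal cells of muscle that support repair and also give rise to fat and fibrous tissue. The set was defined by symbol and holds 56 subunit genes, of 55341 genes in the count table. All 56 had a row there and all 56 passed the filter on low counts that left 15240 genes to test. They are 32 genes of complex I, 4 of complex II, 6 of complex III, 10 of complex IV and 4 of complex V. Ndufs5, a complex I gene, was set against the other 31 complex I genes.

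The cells came from adult mice of 2 genotypes. The Prdm16 mice were Prdm16Flox/Flox::PdgfrαCre-ERT/+, with both Prdm16 alleles floxed and a tamoxifen-inducible Cre recombinase at Pdgfra, a gene that marks FAPs. The WT mice were Prdm16Flox/Flox::Pdgfrα+/+, so they carried the same floxed alleles without the Cre. Mice of both genotypes received tamoxifen on 5 days in a row, rested for 7 days, and had their muscle injured with the snake toxin cardiotoxin. FAPs were sorted 5 days after injury and expanded in culture for 4 to 5 days, so the RNA is that of cultured cells. RNA was measured in 2 libraries labelled Prdm16 and 3 labelled WT, prepared by SMART-seq2, a protocol that copies polyadenylated RNA and does not keep its strand. Domains of H3K9me2, which marks repressed chromatin, were available for 3 libraries of each genotype, and domains of the nuclear lamina protein LaminB1 for 1 library of each. The labels do not say that replicates came from separate animals, so a p-value here measures only the spread of these libraries, which may be technical.

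The respiratory chain sits in the inner membrane of mitochondria, where complexes I to IV pass electrons from nutrients to oxygen and pump protons, and complex V uses the proton gradient to make ATP. Most of its subunits are encoded in the nucleus and imported, while a small number are encoded by mitochondrial DNA, so both genomes supply each of complexes I, III, IV and V. In complex I the core subunits carry the flavin and the iron-sulfur clusters or the proton pumps, and the accessory subunits surround them and are needed for assembly. The transcription factor NRF1 and the ETS factor GABP are known to bind many promoters of these genes.

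Ndufs5 lies on the minus strand of chromosome 4 from 123712710 to 123718186 (GRCm38.p6). Promoter sequences are shown for Ndufs5 and for the members whose gene body lay in an H3K9me2 domain in at least 1 library, Ndufs6, Ndufa5 and Cox7c. Cox6a1 is added, after its sequence was seen, because it held all 3 motifs searched. Each runs from 250 bases before to 50 bases after the annotated start and is on the minus strand, and for Ndufa5 it is the first of the starts listed. Sequences are from RefSeq on GRCm38.p6, where 46 of the 56 members had an entry. They span chr4:123718137-123718436 (Ndufs5), chr13:73328433-73328732 (Ndufs6), chr6:24527477-24527776 (Ndufa5), chr13:86046746-86047045 (Cox7c) and chr5:115348909-115349208 (Cox6a1). Capitals mark matches, on either strand, to GCGCATGCG (the core of the NRF1 motif), CCGGAAG (an ETS core) and GCGCAGGCG, a GC-rich sequence added to the search after the promoters were seen.
Ndufs5: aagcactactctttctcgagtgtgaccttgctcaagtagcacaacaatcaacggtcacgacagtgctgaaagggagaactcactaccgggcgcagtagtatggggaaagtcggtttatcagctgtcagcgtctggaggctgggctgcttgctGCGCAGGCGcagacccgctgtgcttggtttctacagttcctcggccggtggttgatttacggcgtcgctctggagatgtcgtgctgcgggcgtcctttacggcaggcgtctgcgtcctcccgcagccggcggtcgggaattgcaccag
Ndufs6: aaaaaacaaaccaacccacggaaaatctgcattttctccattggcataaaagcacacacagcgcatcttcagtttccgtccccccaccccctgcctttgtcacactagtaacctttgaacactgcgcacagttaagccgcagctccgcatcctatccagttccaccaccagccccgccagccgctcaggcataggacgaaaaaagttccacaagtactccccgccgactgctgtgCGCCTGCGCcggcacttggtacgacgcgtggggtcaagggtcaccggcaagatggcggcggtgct
Ndufa5: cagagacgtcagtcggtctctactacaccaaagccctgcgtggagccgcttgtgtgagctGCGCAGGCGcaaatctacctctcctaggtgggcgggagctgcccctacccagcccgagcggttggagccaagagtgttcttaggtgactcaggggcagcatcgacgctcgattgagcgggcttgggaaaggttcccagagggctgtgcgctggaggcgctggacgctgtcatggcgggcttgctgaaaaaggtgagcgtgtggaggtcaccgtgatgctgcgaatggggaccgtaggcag
Cox7c: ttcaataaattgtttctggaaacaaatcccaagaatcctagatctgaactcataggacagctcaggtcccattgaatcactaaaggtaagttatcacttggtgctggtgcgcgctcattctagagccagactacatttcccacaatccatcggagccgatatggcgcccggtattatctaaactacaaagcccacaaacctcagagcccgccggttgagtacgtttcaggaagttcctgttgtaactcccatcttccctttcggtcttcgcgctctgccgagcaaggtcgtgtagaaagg
Cox6a1: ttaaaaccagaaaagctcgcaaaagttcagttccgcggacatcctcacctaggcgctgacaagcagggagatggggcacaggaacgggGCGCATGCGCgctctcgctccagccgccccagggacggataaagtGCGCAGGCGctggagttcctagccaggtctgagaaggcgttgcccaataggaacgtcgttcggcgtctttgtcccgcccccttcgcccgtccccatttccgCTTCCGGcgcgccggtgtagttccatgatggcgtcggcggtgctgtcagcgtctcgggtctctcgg

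The Ndufs5 window held GCGCAGGCG on its own strand and neither of the other motifs. Ndufa5 held the same match, Ndufs6 held it on the opposite strand (printed as CGCCTGCGC), and Cox7c held no match to any of the 3. In Cox6a1 the NRF1 core matched on both strands over 1 run of overlapping letters, and the ETS core matched on the opposite strand. Over all members with an entry, GCGCAGGCG was found in 6 of 46 (Ndufs5, Ndufs6, Ndufa5, Ndufb10, Sdha and Cox6a1), the NRF1 core in 4 (Ndufa8, Ndufa11, Uqcrc1 and Cox6a1) and the ETS core in 9. The members have 50 annotated promoters, of which 14% held GCGCAGGCG, 8.0% the NRF1 core and 18% the ETS core. Among all 32851 promoters of the same length, which include those of genes not tested here, the shares were 2.75%, 1.75% and 8.86%. Because GCGCAGGCG was picked after member promoters were seen, its share among members cannot be set fairly against that of all promoters. A match describes letters in this window and is not a binding site.

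The RNA libraries held 5839587 to 8448654 counts for Prdm16 and 7053114 to 10657791 for WT. Prdm16, the deleted gene and a zinc-finger regulator, had 91 and 86 counts in the libraries labelled Prdm16 replicates 1 and 2, against 171, 94 and 59 counts in those labelled WT replicates 1, 2 and 3. These values overlapped (log2 fold change 0.13, SE 0.47, edgeR adjusted p = 0.9996), and the sign turned without the library labelled WT replicate 3 (-0.21) or Prdm16 replicate 2 (-0.14). Because reads outside the floxed exons also count, these values do not test the deletion. The library labelled Prdm16 replicate 2 held 15 counts of Xist, the RNA of the inactive X chromosome, against 4116 in the library labelled Prdm16 replicate 1 and 3483 to 4652 in the WT libraries. In the edgeR fit that set Prdm16 replicate 2 alone against WT, the genes called were Xist and the Y-linked Ddx3y, Eif2s3y and Uty. By these genes the 2 libraries labelled Prdm16 differed in sex, which no fit took into account. The p-values in the authors' deposited table matched DESeq2 within 1% for 6237 of 6237 genes when the Prdm16 pair was made of those labelled Prdm16 replicate 2 and WT replicate 3, and for 38 of 6237 (0.609%) with the pair as labelled. Groups below follow the labels. The doubtful libraries are those labelled WT replicate 3 and Prdm16 replicate 1. The counts at an unadjusted p under 0.05, the median over the members, Ndufs5, Prdm16 and some named genes are also given without them or with the grouping of that table. Counts below or above all WT libraries and medians by complex, by list and by cell type come only from all libraries as labelled.

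Respiratory chain genes had lower values in the libraries labelled Prdm16 across most of the set, and Ndufs5 lay far below the rest of it. Of the 56 members 51 had a negative log2 fold change, and the median was -0.40, against 49.9% of genes and a median of 0.00 over all 15240 genes tested. Both libraries labelled Prdm16 lay below all 3 WT libraries for 42 members (75%), against 8.96% of all genes, and for 0 members above them, against 8.83%. The other 14 members overlapped between the groups. No member passed the test, as 0 of 15240 genes (0.0%) had an edgeR adjusted p under 0.05. At an unadjusted p under 0.05 the members counted 17 lower (30.4%) and 0 higher, against 1.37% and 1.11% of all genes.

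These counts depended on single libraries. The 17 members became 3 without the library labelled WT replicate 1 (0.616% of all genes), 9 without Prdm16 replicate 1 (1.02%) and 1 without Prdm16 replicate 2 (0.207%). They became 12 without WT replicate 2 (3.41%), 24 without WT replicate 3 (3.06%) and 12 without both Prdm16 replicate 1 and WT replicate 3 (3.57%). Upper-quartile scaling gave 14 (1.2%) and no filter on low counts 21 (1.94%). Grouped as in the authors' table, the fit left a single member lower at that p, or 1 where 5.7% of all genes were lower, and the median was -0.21. That fit called 182 genes (1.19%) and the one without Prdm16 replicate 1 called 4 (0.0245%), with 0 members among them in either. The median of all genes stayed within 0.04 of 0 in each fit. Levels are given in CPM, the count scaled to a common library size. Set against the WT mean, the median member stood at -0.29 and -0.47 log2 CPM in the libraries labelled Prdm16 replicates 1 and 2. In the WT libraries it stood at 0.09, 0.02 and -0.10.

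**Figure D1:**
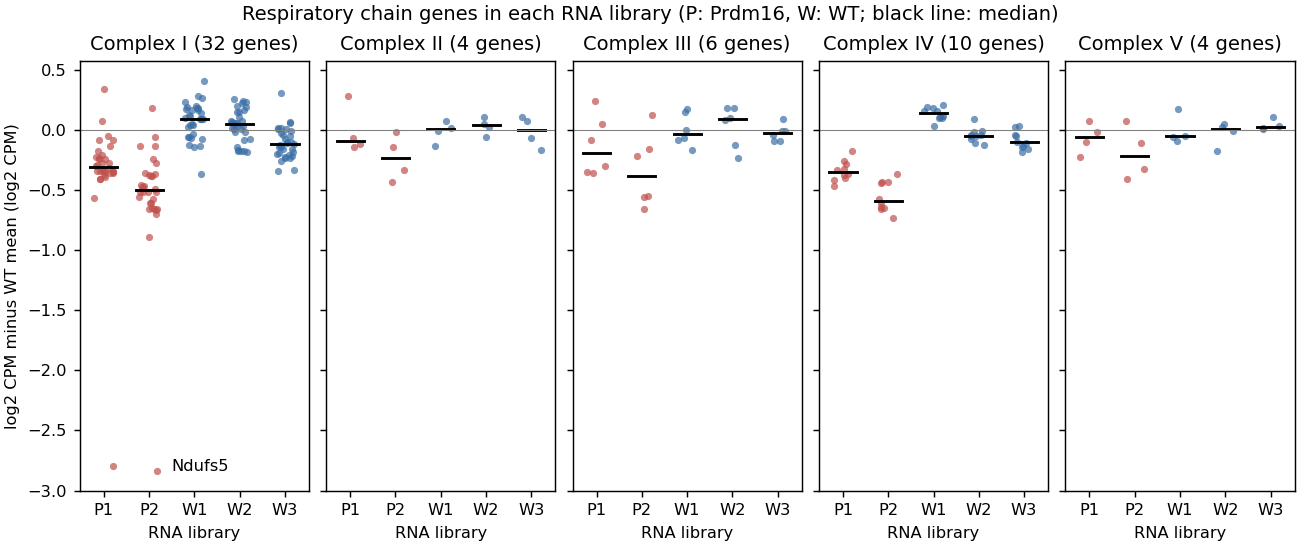
Each point is 1 gene in 1 RNA library, plotted as log2 CPM minus the gene's WT mean, by complex, with the libraries labelled Prdm16 (P) left of those labelled WT (W) and black lines at medians. Complex I medians are -0.31 and -0.50 for P1 and P2 against 0.09, 0.05 and -0.12 for W1 to W3, and Ndufs5 lies far below the other complex I genes in both P libraries.

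Ndufs5, an accessory subunit on the intermembrane side of complex I, had 47 and 30 counts in the libraries labelled Prdm16 replicates 1 and 2, against 450, 251 and 382 counts in the WT libraries. Its level was 5.49 and 5.33 CPM in the libraries labelled Prdm16, against 43.3, 36.0 and 35.6 CPM in WT. The 2 Prdm16 values were close to each other, and the 3 WT values lay far above them with no overlap. The mean was 5.41 ± 0.112 CPM in Prdm16 (SD, n = 2) and 38.3 ± 4.32 CPM in WT (SD, n = 3), with a log2 fold change of -2.82 (SE 0.27). By edgeR's quasi-likelihood test the unadjusted p was 5.6e-06, the smallest of all genes tested, and the Benjamini-Hochberg adjusted p was 0.085, above the threshold of 0.05. By size it was the 4th lowest log2 fold change of all genes tested.

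The call on Ndufs5 depended on the tool, the scaling and the libraries, while under the labels its log2 fold change stayed between -2.92 and -2.74. DESeq2 called it (log2 fold change -2.83, adjusted p = 5.4e-15) as 1 of 2 genes called (0.0131%), and edgeR with upper-quartile scaling called it alone (-2.79, adjusted p = 0.041, 0.00656% of genes). It was also 1 of 25 calls (0.0777%) of edgeR without a filter on low counts (-2.84, adjusted p = 4.1e-11), and 1 of 93 (0.614%) without both the Prdm16 replicate 1 and the WT replicate 3 library (-2.92, adjusted p = 0.028). Limma-voom did not call it (-2.8, adjusted p = 0.586). Leaving out 1 library at a time gave log2 fold changes from -2.87 to -2.74 and edgeR adjusted p from 0.222 to 0.9999. With the grouping of the authors' table the value was -0.43 (edgeR adjusted p = 0.932), since that grouping puts 1 library with low Ndufs5 in each group. The authors' deposited table itself gave Ndufs5 a log2 fold change of -0.02 and a p-value of 0.715. That fold change is nearer to 0 than the -0.43 fitted here with the same grouping, so the 2 sizes are not comparable.

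Set against its complex I partners, Ndufs5 kept its difference between the groups. On the log2 CPM scale Ndufs5 minus the mean of the 31 partners was -4.49 and -4.33 in the libraries labelled Prdm16, against -1.89, -2.13 and -1.99 in WT. The means were -4.41 ± 0.11 (SD, n = 2) in Prdm16 and -2.00 ± 0.12 (SD, n = 3) in WT, a difference of -2.41, so the gap between the groups was many times the spread within them. Taken against each partner singly, the difference ranged from -3.02 (Ndufs1) to -2.14 (Ndufa4). The groups did not overlap for 31 of 31 partners. These 31 comparisons share the same Ndufs5 values, so they are not independent and largely restate its own difference. Of all complex I counts, Ndufs5 made up 0.13% (95% Clopper-Pearson interval 0.0958 to 0.173) and 0.145% (0.098 to 0.207) in the libraries labelled Prdm16. In the WT libraries it made up 0.802% (0.73 to 0.879), 0.691% (0.608 to 0.781) and 0.759% (0.685 to 0.839). These intervals cover counting error only, and those of the 2 groups do not meet. With the grouping of the authors' table the difference from the partners was -0.32.

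**Figure D2:**
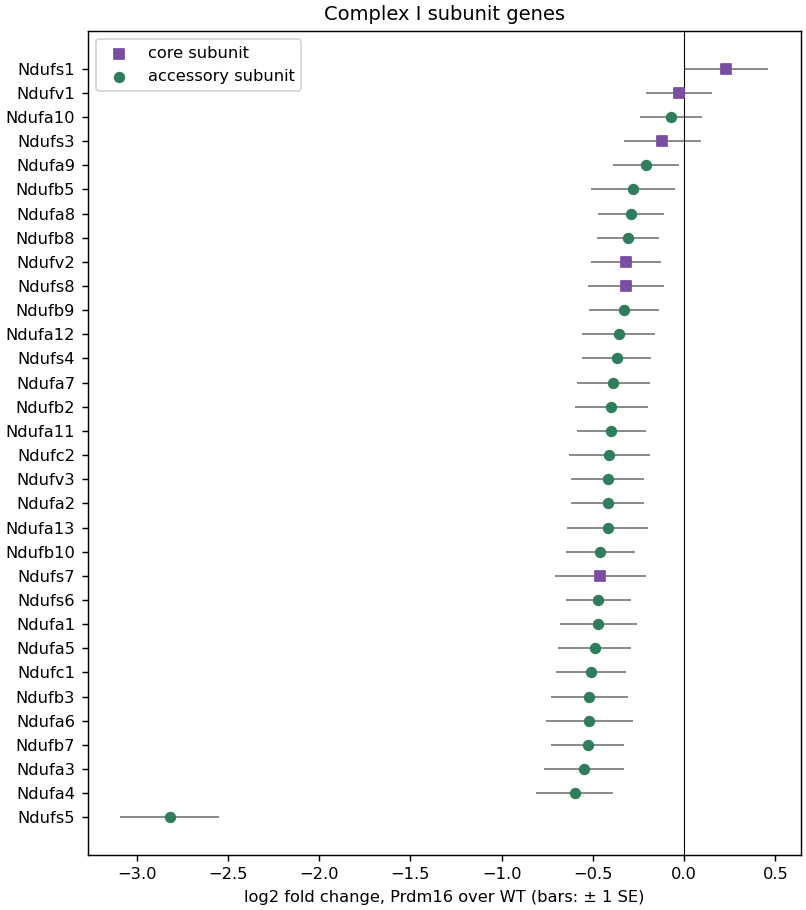
Log2 fold change of each of the 32 complex I genes, Prdm16 over WT by the labels, with bars of 1 SE, squares for core and circles for accessory subunits. Ndufs5 lies at -2.82 and the other 31 genes between -0.60 (Ndufa4) and 0.23 (Ndufs1).

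The genes beside Ndufs5 on chromosome 4 overlapped between the groups. This held for each of the 8 genes tested within 500 kb of it. As 12530 of all 15240 genes tested also overlapped, it does not set the neighbours apart. Each of the 8 had an edgeR adjusted p of 0.9996. Macf1, a large cytoskeletal linker 24.9 kb away, had 294 and 389 CPM in the libraries labelled Prdm16, against 263, 246 and 324 CPM in WT. Akirin1, a nuclear protein gene 17.0 kb away, had 10.5 and 18.1 CPM in Prdm16, against 50.7, 8.74 and 25.5 CPM in WT. Its log2 fold change of -1.0 (SE 0.73) came with WT values that spread on both sides of the Prdm16 values. Mycbp, which binds the transcription factor Myc, had 34 and 34.6 CPM in Prdm16, against 32.5, 38.6 and 40.9 CPM in WT. Rragc, a GTPase of the mTORC1 pathway, had a log2 fold change of 0.41, Pabpc4, a poly(A)-binding protein gene, 0.30, and the Notch target Heyl -0.47. The low-count genes Gm12925 and D130007C19Rik were at -1.43 and 0.43. RefSeq also lists a transcribed pseudogene, Ndufs5-ps, on chromosome 16 from 42955580 to 42956079, which was not analysed here, so reads shared with it are uncertain.

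**Figure D3:**
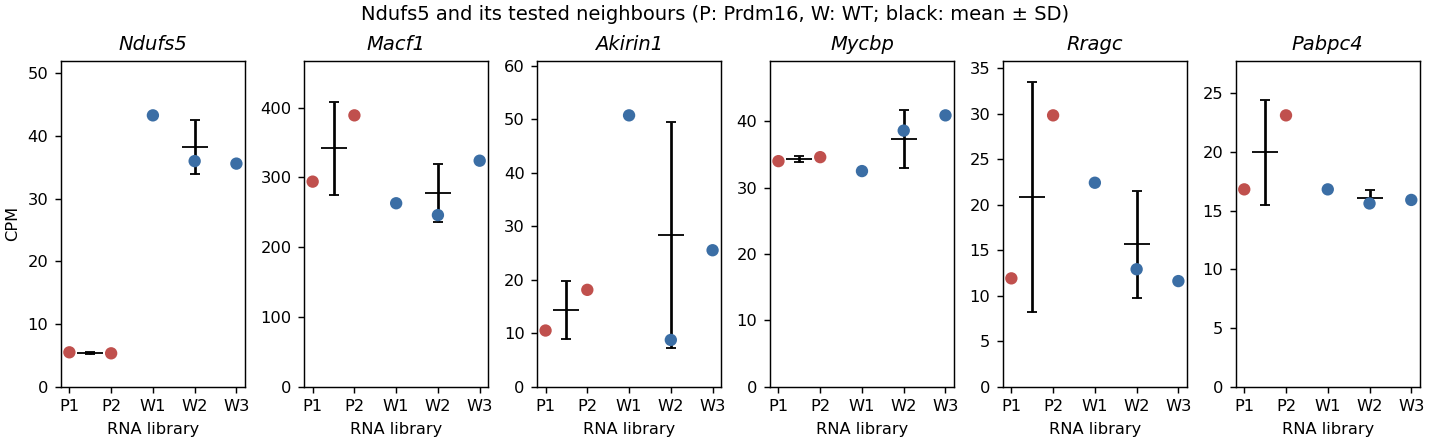
Level in CPM of Ndufs5 and 5 tested neighbours in each RNA library, with the libraries labelled Prdm16 (P) left of WT (W) and black marks for the mean ± SD of each group. Ndufs5 sits at 5.33 to 5.49 CPM in the P libraries, against 35.6 to 43.3 CPM in the W libraries. Each neighbour overlaps between the groups, as do 12530 of all 15240 genes tested.

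Among the 31 partners, accessory subunits had a lower median than core subunits. The 25 other accessory genes all had negative log2 fold changes, with a median of -0.42. Of these 25, 22 lay below all WT libraries, against 8.96% of all genes. The 6 core genes had a median of -0.22, 5 were negative, and 2 (Ndufs7 and Ndufv2) lay below all WT libraries. The difference between these subsets was not tested. The split into core and accessory subunits follows textbook roles, except that Ndufa4 is counted as accessory by its name.

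Ndufa4 had the lowest log2 fold change of the partners, -0.60 with an SE of 0.21. It was named as a complex I subunit, and is counted as a partner here by that name, but was later found with cytochrome c oxidase. Its level was 248 and 171 CPM in the libraries labelled Prdm16, against 338, 314 and 301 CPM in WT, with no overlap. Ndufb7, whose protein sits like that of Ndufs5 on the intermembrane side, had 151 and 125 CPM in Prdm16, against 221, 175 and 199.8 CPM in WT (-0.53, SE 0.20). Ndufs6, a zinc-binding accessory subunit of the peripheral arm, had 115 and 107 CPM in Prdm16, against 163, 156 and 141 CPM in WT (-0.47, SE 0.18). In each of these genes both Prdm16 values lay below the lowest WT value. Ndufa3 (-0.55), Ndufb3 (-0.52), Ndufc1 (-0.51), Ndufa5 (-0.49) and Ndufb10 (-0.46) were the other partners with an unadjusted p under 0.05. Apart from Ndufs5, every member had an edgeR adjusted p of 0.9996.

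Partners with other roles filled the rest of the range. Ndufa6 (-0.52), Ndufa1 (-0.47), Ndufa2 (-0.42), Ndufa13 (-0.42), Ndufv3 (-0.42) and Ndufc2 (-0.41) had values near the accessory median, as had Ndufa11 (-0.40), Ndufb2 (-0.40) and Ndufa7 (-0.39). Ndufs4 (-0.37), Ndufa12 (-0.36), Ndufb9 (-0.33), Ndufb8 (-0.31), Ndufa8 (-0.29), Ndufb5 (-0.28), Ndufa9 (-0.21) and Ndufa10 (-0.07) were nearer to 0. Of the core genes, Ndufs7, which holds the last iron-sulfur cluster before ubiquinone, was at -0.46 (SE 0.25), Ndufv2 and Ndufs8, both iron-sulfur subunits, at -0.32, Ndufs3 at -0.12 and the flavin subunit gene Ndufv1 at -0.03. Ndufs1, the largest iron-sulfur subunit of the electron input arm, was the exception in sign. Its level was 142 and 127 CPM in the libraries labelled Prdm16, against 87.1, 117 and 139 CPM in WT, which overlap (log2 fold change 0.23, SE 0.23). The 4 partners that join the membrane arm near the mitochondrially encoded ND2 subunit, as Ndufs5 does (Ndufa10, Ndufa11, Ndufc1 and Ndufc2), had a median of -0.40, close to that of the 31 partners. Against the mean of these 4, Ndufs5 stood at -4.42 and -4.24 log2 in the libraries labelled Prdm16, against -1.75, -2.04 and -1.94 in WT.

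Complex IV, cytochrome c oxidase, which hands electrons to oxygen, had lower values in each of its 10 genes in the set. All 10 had negative log2 fold changes (-0.56 to -0.27, median -0.46), all 10 lay below all WT libraries, and 6 had an unadjusted p under 0.05. Of all genes, 8.96% lay below all WT libraries and 1.37% were lower at that p. Cox7a2, a small membrane subunit, had 166 and 146 CPM in the libraries labelled Prdm16, against 256, 212 and 222 CPM in WT (-0.56, SE 0.18). Cox6c, another small membrane subunit, had 192 and 153 CPM in Prdm16, against 271, 269.6 and 224 CPM in WT (-0.56, SE 0.20). Cox6b1, which bridges the dimer on the intermembrane side, had 277 and 236 CPM in Prdm16, against 391, 356 and 336 CPM in WT (-0.49, SE 0.18). The gap was widest between the library labelled Prdm16 replicate 2 and WT replicate 1 in each of these 3 genes. Cox7b (X-linked, -0.48), Cox5b (-0.49) and Cox4i1 (-0.43) made up the other 3 at that p, and Cox7c (-0.42), Cox6a1 (-0.41), Cox8a (-0.35) and Cox5a (-0.27) did not reach it.

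Complex III, which passes electrons from ubiquinone to cytochrome c, had 3 genes below all WT libraries and 3 that overlapped. Uqcrh, the hinge subunit that touches cytochrome c, had 291 and 236 CPM in the libraries labelled Prdm16, against 419.8, 341 and 362 CPM in WT (-0.51, SE 0.19). Uqcrb and Uqcrq, small subunits that bind near the ubiquinone site and stabilise cytochrome b, were at -0.43 and -0.45 (SE 0.18 and 0.20), and all 3 of these genes lay below all WT libraries. The large subunits Uqcrc1 (0.08) and Uqcrc2 (0.02) and the Rieske iron-sulfur protein gene Uqcrfs1 (-0.13) overlapped between the groups. Of the 6 genes, Uqcrh and Uqcrb had an unadjusted p under 0.05. Among all genes 8.96% lay below all WT libraries and 1.37% were lower at that p.

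Complex II, succinate dehydrogenase, also works in the citric acid cycle and is encoded wholly in the nucleus. Its 4 genes had a median of -0.17, and 0 had an unadjusted p under 0.05. Among all genes 1.37% were lower at that p, and 8.96% lay below all WT libraries. Sdhb, the iron-sulfur subunit, had 244 and 196 CPM in the libraries labelled Prdm16, against 269, 275 and 253 CPM in WT (-0.27, SE 0.18), and the membrane anchor gene Sdhd (-0.23) likewise lay below all WT libraries. The flavin subunit gene Sdha (0.14) and the other anchor gene Sdhc (-0.11) overlapped, and the sign of Sdha turned without the library labelled Prdm16 replicate 1 (-0.05).

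Complex V, the ATP synthase, had a median of -0.13 over its 4 genes in the set. Of these 4, 0 had an unadjusted p under 0.05, against 1.37% lower and 1.11% higher among all genes. The catalytic pair of complex V overlapped between the groups. Atp5b, the beta subunit that forms ATP, had 1469 and 1568 CPM in the libraries labelled Prdm16, against 1398, 1479 and 1602 CPM in WT (0.02, SE 0.18), and Atp5a1, the alpha subunit, had a value of -0.02. The sign turned for Atp5b without the library labelled WT replicate 1 (-0.03) and for Atp5a1 without Prdm16 replicate 2 (0.08). The stalk subunit genes Atp5c1 (-0.25) and Atp5d (-0.28) lay below all WT libraries, as did 8.96% of all genes. Outside the set, the ATP synthase genes Atp5g2 (-0.73), Atp5k (-0.58), Atp5e (-0.56), Atp5j (-0.49) and Atp5j2 (-0.41) had an unadjusted p under 0.05. Atp5f1, Atp5g1, Atp5g3, Atp5h, Atp5l and Atp5o did not reach that p. The 4 genes of the set therefore do not stand for the whole complex.

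Subunits of the same complexes outside the set had similar values. Of 20 further nuclear subunits, all tested, 19 had negative log2 fold changes with a median of -0.36, 16 lay below all WT libraries and 7 had an unadjusted p under 0.05. The shares of all genes were 8.96% below all WT libraries and 1.37% lower at that p. Uqcr10, a small subunit of complex III, had 88.9 and 77.4 CPM in the libraries labelled Prdm16, against 144, 114 and 118 CPM in WT (-0.60, SE 0.20). The small ATP synthase subunit genes Atp5k (-0.58) and Atp5j (-0.49) followed. Of the subunits encoded by mitochondrial DNA, 8 of 13 could be tested, and they had a median of -0.14 with 5 negative and 0 at an unadjusted p under 0.05. The untested mt-Nd4l, mt-Co2, mt-Co3, mt-Atp6 and mt-Atp8 held 0 to 4 counts per library, against 22613 to 27100 for mt-Co1. The reason was not tested, so the median of the 8 may not stand for mitochondrial RNA as a whole. The gene mt-Co1, for the catalytic subunit of complex IV, had 3163 and 4016 CPM in Prdm16, against 2361, 3788 and 2391 CPM in WT, which overlap (0.33, SE 0.26). The genes mt-Cytb (-0.28) and mt-Nd6 (-0.24) overlapped as well. Of the 8, mt-Nd5 alone lay below all WT libraries, with 1196 and 1121 CPM in Prdm16, against 1458, 1248 and 1299 CPM in WT (-0.20, SE 0.18).

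Genes that assemble or control the chain had medians nearer to 0 than its subunits, a difference that was not tested. Of 17 complex I assembly factors tested, 14 were negative with a median of -0.19, and Ndufaf6 alone had an unadjusted p under 0.05. Its level was 5.25 and 4.80 CPM in the libraries labelled Prdm16, against 14.7, 7.31 and 8.68 CPM in WT (-1.03, SE 0.43). Ndufaf8 (-0.48) and Timmdc1 (-0.75), an assembly factor in the inner membrane, followed by p. Of 17 complex IV assembly factors 16 were negative with a median of -0.19 and 0 had an unadjusted p under 0.05. The shares negative were 82.4% for complex I and 94.1% for complex IV assembly, against 49.9% of all genes and 91.1% of the members. Among all genes 1.37% were lower at that p and 8.96% lay below all WT libraries. Sco1, which delivers copper, was at -0.62, Cox14 at -0.39 and Cox20 at -0.60.

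Ndufs5 protein enters the intermembrane space through the disulfide relay, for which 3 genes were listed. Chchd4, the import receptor, had 19.4 and 23.1 CPM in the libraries labelled Prdm16, against 26.9, 17.6 and 29.4 CPM in WT (-0.22, SE 0.29). Gfer, the oxidase that recharges it, was at -0.31 and Aifm1, its anchor, at 0.03. The 13 listed regulators of mitochondrial biogenesis had a median of -0.07, and 8 were negative, against 49.9% of all genes. Of the 13, 0 had an unadjusted p under 0.05, where 1.37% of all genes were lower. Tfb1m (-0.53), Pprc1 (-0.35) and Gabpa (0.19), the DNA-binding part of GABP, had the smallest p among the 13, and all 3 overlapped between the groups. Among all genes 8.96% lay below all WT libraries. Of the 13, Ppargc1a, the coactivator PGC-1alpha, alone lay below all WT libraries, with 1.28 and 0.888 CPM in Prdm16, against 1.44, 1.43 and 1.59 CPM in WT (-0.43, SE 0.58). The 12 citric acid cycle genes had a median of -0.02, and all 12 overlapped, as did 12530 of all 15240 genes tested. Idh3g (-0.16), Dlst (0.17) and Suclg1 (-0.13) had the smallest p of the 12. Of the tissue isoforms 6 of 9 were tested, with a median of 0.45 and 0 at an unadjusted p under 0.05. Ndufa4l2, a relative of Ndufa4, had 7.0 and 122 CPM in Prdm16, against 18.3, 45.9 and 24.8 CPM in WT (1.12, SE 1.19), and Cox4i2 (0.89) and Cox6a2 (0.63) were likewise uneven within the groups.

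**Figure D4:**
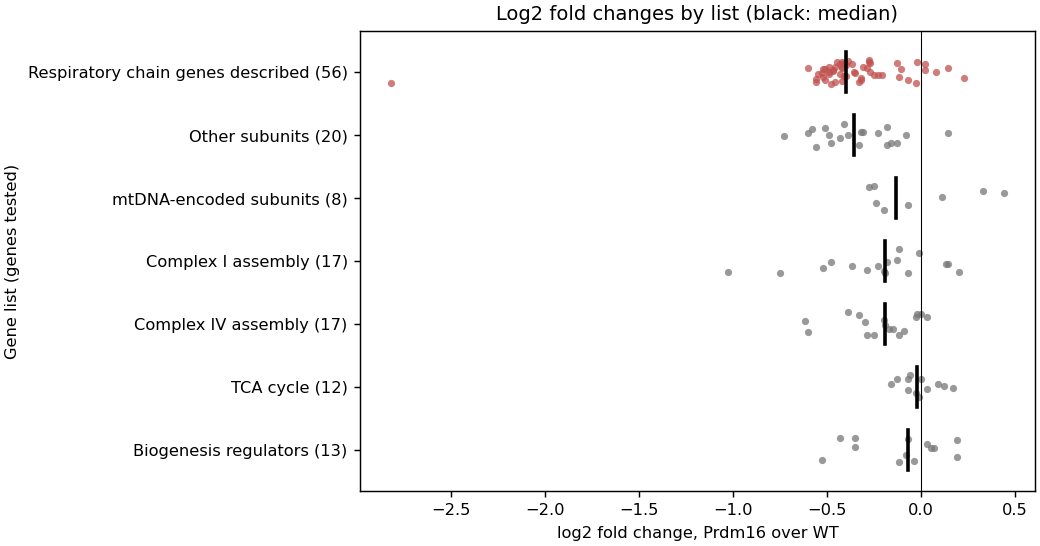
Log2 fold change, Prdm16 over WT by the labels, of each tested gene in 7 lists, with black lines at medians and the number of genes tested in brackets. The 56 respiratory chain genes (median -0.40, Ndufs5 at the far left) and 20 other subunits (-0.36) lie left of 0, against medians of -0.02 for the citric acid cycle (TCA) and -0.07 for biogenesis regulators.

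Markers of FAPs and of other cells were measured in the same libraries. The FAP label was met, with 8 of 8 FAP markers counted in each library and summed levels of 6659.5 and 6169 CPM in the libraries labelled Prdm16, against 6342, 6871 and 3581 CPM in WT. Of the 8 FAP markers, 4 lay above all WT libraries, against 8.83% of all genes. They were Cd34 (0.51, with an unadjusted p under 0.05), Lum (1.37), Dcn (0.83) and Dpt (0.49). The other 4 overlapped, Pdgfra (-0.15), Ly6a (-0.36), Col1a1 (0.36) and Col3a1 (0.27). Each of the 8 but Cd34 was lowest in the library labelled WT replicate 3. There Lum, Dcn and Dpt were at 8.12, 129 and 11.8 CPM, and Pdgfra and Col3a1 at 471 and 584 CPM. The 8 muscle fibre markers summed to 247 and 246 CPM in Prdm16, against 73.8, 144 and 178 CPM in WT, with Myh2 at 0 in every library. Of the 6 tested, 5 lay above all WT libraries, against 8.83% of all genes. Of them Tnnt3 (0.79), Acta1 (0.93) and Ckm (1.03) had an unadjusted p under 0.05. The 8 myogenic markers summed to 291 and 289 CPM in Prdm16, against 109, 137 and 386 CPM in WT. The library labelled WT replicate 3 held 11 counts of Pax7, against 0 or 1 in the others, and 14 of Myf5, against 2 or 3. Megf10 was instead highest in Prdm16 replicate 2. So WT replicate 3 differed from the other WT libraries in both FAP and myogenic markers. Macrophage markers summed to 5.16 to 6.85 CPM over the libraries, with Adgre1 at 0. Endothelial markers summed to 7.69 and 5.99 CPM in Prdm16, against 3.47, 3.97 and 6.51 CPM in WT. Of the 3 endothelial markers tested, Cdh5 (1.34, an unadjusted p under 0.05) lay above all WT libraries, while Kdr (-0.25) and Tek (-0.46) overlapped. Pericyte markers summed to 83.6 and 102 CPM in Prdm16, against 102, 75.4 and 96.6 CPM in WT. The part of these cells in the lower respiratory chain values was not tested. In bulk RNA, fewer cells of a type and less RNA per cell cannot be told apart.

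**Figure D5:**
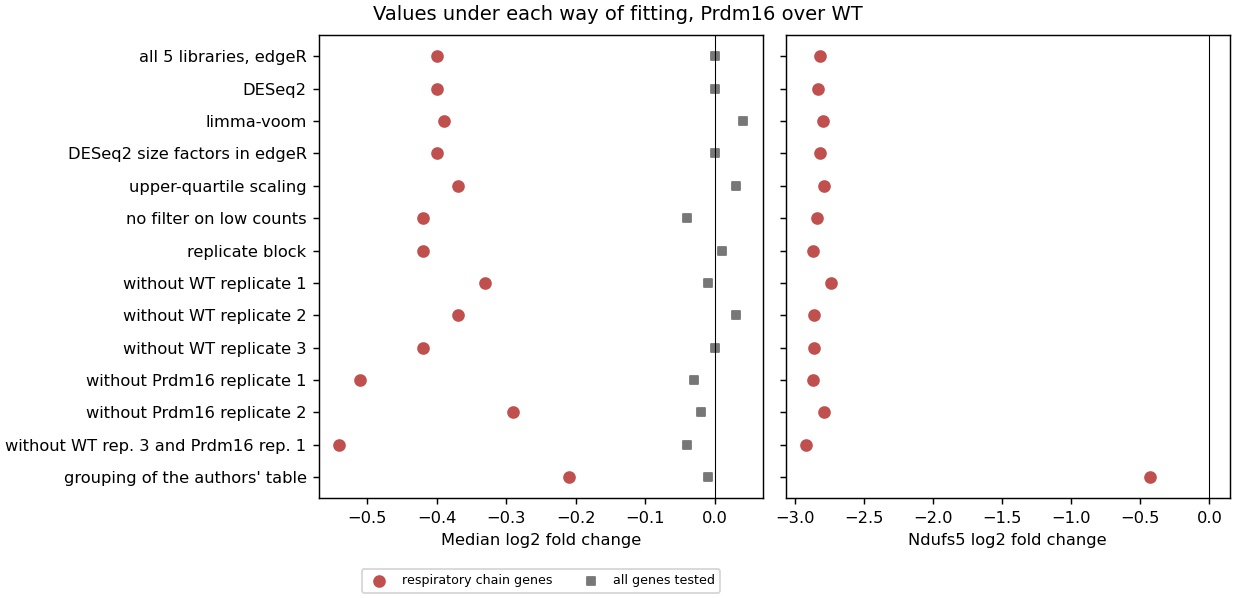
Median log2 fold change of the 56 respiratory chain genes and of all genes tested (left) and the Ndufs5 value (right) under each way of fitting, Prdm16 over WT. The median of the set runs from -0.54 to -0.21, and Ndufs5 stays between -2.92 and -2.74 except under the grouping of the authors' table, where it is -0.43.

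The authors' deposited table, whose pair differs from the labels as given above, called 0 of the 56 members, where it called 471 of the 6237 genes to which it gave an adjusted p (7.55%). Of the members, 36 had an adjusted p in the authors' deposited table, the smallest being 0.456 (Ndufa13), and 52 members had a negative log2 fold change, with values from -0.30 to 0.09. These sizes are not comparable with those fitted here. Ndufa4, for example, was at -0.15 there and at -0.34 here with the same grouping.

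At most 2 respiratory chain genes lay inside the H3K9me2 domains of any library, a share near that of all genes. With a gene counted as inside when at least 0.5 of its body was covered, the libraries labelled Prdm16 held 1, 1 and 1 of the 56 members, against 2, 0 and 2 in the WT libraries. Over the 13572 tested genes with a RefSeq position, the shares inside were 2.62%, 3.39% and 2.94% in Prdm16, against 4.8%, 2.73% and 3.71% in WT. The means of 1.0 and 1.33 members were compared by an exact two-sided permutation test, which gave p = 1.0, where 3 against 3 libraries allow no p under 0.1. Ndufs6 was inside in Prdm16 replicate 1, in a domain on chromosome 13 from 70863001 to 73410000. Cox7c was inside in Prdm16 replicates 2 and 3 and in WT replicates 1 and 3, in domains of 444 to 486 kb. Ndufa5 was inside in WT replicates 1 and 3, in domains of 5619 and 5631 kb on chromosome 6, and in no Prdm16 library.

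Ndufs5 was in no domain. Its distance to the nearest H3K9me2 domain was 248, 245 and 287 kb in the libraries labelled Prdm16, against 254, 281 and 281 kb in WT, and these ranges overlap. LaminB1 domains held 0 members in either genotype, where they held 0.604% of the located genes in Prdm16 and 1.5% in WT. The nearest LaminB1 domain to Ndufs5 was 438 kb away in Prdm16 and 258 kb away in WT, with 1 library of each and no test.

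Some counts carry added uncertainty from other annotated loci. RefSeq names 7 pseudogenes of 6 members (Uqcrh, Ndufa12, Cox5b, Atp5c1, Ndufs5 and Cox7c), and 18 of the 56 members overlap another RefSeq gene, whose reads cannot be told apart without strand. Ndufs5 itself overlaps no other RefSeq gene.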

How the data were processed

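The deposited count table holds raw counts per gene for the 5 RNA libraries. The authors also deposited a normalized signal table, and a comparison table with log2 fold changes and p-values from the authors' own fit. The deposited domain lists give start, end and the authors' score, with its making and the domain caller not given in the sources used here. Bowtie 1.2.2, STAR 2.7, featureCounts and DESeq2 1.20 are named per the submitters' processing notes, with the builds mm10, GRCm38 and dm6.

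Counts were fitted here with edgeR 4.0.16 in R 4.3.3 after its expression filter at defaults, with TMM scaling and the robust quasi-likelihood test, two-sided, with Benjamini-Hochberg adjustment over 15240 genes and a threshold of 0.05. CPM refer to the scaled library size and are not corrected for length, so levels were not compared between genes. Log2 CPM used a prior count of 2. DESeq2 1.42.0 and limma 3.58.1 served as alternatives, as did other scalings, no filter, a replicate block, leaving out each library, leaving out both Prdm16 replicate 1 and WT replicate 3, and the grouping of the authors' table. The fit was tested on simulated data. No label pairs the replicates across genotypes, and same-numbered libraries correlated by 0.21 and -0.20 in their deviations from the group means over 15240 genes. Domains were compared in Python 3.11.15 with scipy 1.17.1, and figures were drawn with matplotlib 3.10.9. Read depth of the domain lists is unknown.

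Members and lists were chosen with earlier results of these data known, so no set test was run. Named genes were Ndufs5 and its partners, then the 4 members per complex with the smallest unadjusted p, the neighbours of Ndufs5 within 500 kb, and up to 3 genes per other list by p. Other members are given by value to account for the set. The sequences of GRCm38.p6 and gene positions are from RefSeq.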

Additional observations from a re-analysis of the deposited data

How the results depend on the processing

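Against 0 calls over all genes in edgeR, DESeq2 gave 2, upper-quartile scaling 1, no filter on low counts 25, the authors' grouping gave 182 and the fit without both Prdm16 replicate 1 and WT replicate 3 gave 93. Leaving out 1 library gave 0 to 4. With the replicate block, edgeR called 1 gene, Ttn, and Ndufs5 was at -2.87 (edgeR adjusted p = 0.065), while Prdm16 turned to -0.23. Ndufs5 passed the threshold by DESeq2 (-2.83), upper-quartile scaling (-2.79), no filter (-2.84) and without both doubtful libraries (-2.92), and ranged from -2.87 to -2.74 when 1 library was left out. With the grouping of the authors' table, Ndufs5 minus its partners was -0.32 and Prdm16 -0.41.

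The 17 members lower at an unadjusted p under 0.05 ranged from 1 to 24 when 1 library was left out and numbered 1 with the grouping of the authors' table. The median of -0.40 ranged from -0.51 to -0.29 when 1 library was left out, was -0.54 without both doubtful libraries and -0.21 with the grouping of the authors' table. The other pathway lists held 8 genes lower at that p, against 5 by limma-voom, 4 without both doubtful libraries, 1 with the grouping of the authors' table and 1 to 9 without 1 library. Prdm16 ranged from -0.21 to 0.44 without 1 library.

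Of the 247 alternative values of 19 named genes other than Ndufs5, none of them called by the labels, 7 changed sign. Atp5a1 was at 0.01 with upper-quartile scaling and ranged from -0.14 to 0.08 with libraries left out. Atp5b ranged from -0.03 to 0.10 and Sdha from -0.05 to 0.29, with Sdha at -0.02 under the authors' grouping. The cause of these changes was not tested. The difference in members inside H3K9me2 domains, Prdm16 minus WT, was -0.33 at a body share of 0.1 and by start site, 0.0 with domains at or above the lower quartile of score, and -1.0 to 0.0 without 1 library. LaminB1 domains held 0 members under each of these limits. Low counts limit Ndufs5, with 30 to 47 counts in the libraries labelled Prdm16.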
